A study of Mus musculus with 4 samples.

Results

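Astrocytes and Bergmann glia, the radial astrocytes of the cerebellum, were followed here through 33 genes chosen by symbol from a table of 55414 mouse Ensembl genes. Each symbol matched a single identifier, and all 33 genes passed the filter on low counts, with at least 968 reads in every library. Gdf10 and Hopx were included as genes that also mark Bergmann glia. Slc1a2, Mfge8 and Lhx2 were taken as telencephalic genes, and Slc1a3, Agt and Gdf10 as genes rich in hindbrain.

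The study compared 2 libraries of Stra8 knockout (KO) mice with 2 of wild-type (WT) mice by messenger RNA sequencing. Stra8 is best known as the retinoic acid target that starts meiosis in germ cells. Per the series design, mice of both genotypes carried a fluorescent reporter, pStra8-GFP, driven by the Stra8 promoter, and hippocampal cells that were GFP-positive were taken by sorting, so the sort depends on that promoter. The labels give brain as tissue. Age, sex and the number of animals per library are not stated in what was used here, and p-values therefore measure the spread between libraries, which may be technical.

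Astrocytes clear glutamate and potassium from the space around synapses, turn glutamate into glutamine, store glycogen and are joined by gap junctions. Astrocytes of the forebrain lean on the glutamate transporter Slc1a2, while Bergmann glia, whose processes run along Purkinje cell dendrites, lean on Slc1a3. Astrocytes also carry regional transcription factors and secreted proteins that depend on where they were born.

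The libraries held 82172740 and 71097417 reads in KO and 80310856 and 81905583 in WT, and each detected 28356 to 28801 genes. Stra8 had 7 and 4 reads in KO and 5 and 1 in WT, too few to check the genotype labels. All 4 libraries held both Xist and Y-linked transcripts: Xist stood at 441 and 420 CPM (counts scaled to a common library total) in KO against 297 and 287 in WT, and Ddx3y at 11.95 and 11.6 CPM in KO against 27.9 and 28.1 in WT. The Y-linked genes Kdm5d, Uty and Eif2s3y were also lower in KO (log2 fold changes -1.31, -1.235 and -1.12). Sex-linked transcripts thus differed with genotype, and the part of sex in the differences below cannot be told apart from that of genotype. The libraries also held markers of cerebellum, choroid plexus and pituitary, which lie outside the hippocampus. None of the 33 genes was at 0, but other brain cells transcribe several of them, and this does not check which cells the reads came from.

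Most astrocyte genes differed little between KO and WT, and those that changed mostly fell. Of the 33 genes, 12 fell in KO, 2 rose and 19 were not called (edgeR quasi-likelihood test over 21592 genes, p adjusted by Benjamini-Hochberg and called under 0.05, n = 2 libraries each). The genes that fell were Gdf10, Hopx, Slc1a3, Glul, Atp1b2, Slc4a4, Aldoc, Id4, F3, Gjb6, Acsbg1 and Gfap, and those that rose were Slc7a11 and Kcnj10. The lower calls were 36.4% of the genes and the higher calls 6.06%, where 3.19% and 3.35% of all genes tested were lower and higher, and 6.53% were called in either direction. Well-counted genes were called more often: among the 8586 genes with a mean count of at least 1327, the lowest mean among the 33 genes, 5.97% were lower, 7.56% higher and 13.5% called. Most of the 33 genes were counted well above that cut, and shares at their own depth were not computed. The median log2 fold change of the 33 genes, KO over WT, was -0.049, against -0.00038 over all genes tested. In 25 of the 33 genes the CPM of KO and WT libraries did not overlap, where 45.7% of all genes tested and 55.9% of the well-counted genes did not. This held for all 14 called genes, of which 9 differed by less than 10%. In bulk RNA, fewer astrocytes and less RNA per astrocyte cannot be told apart.

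**Figure D1:**
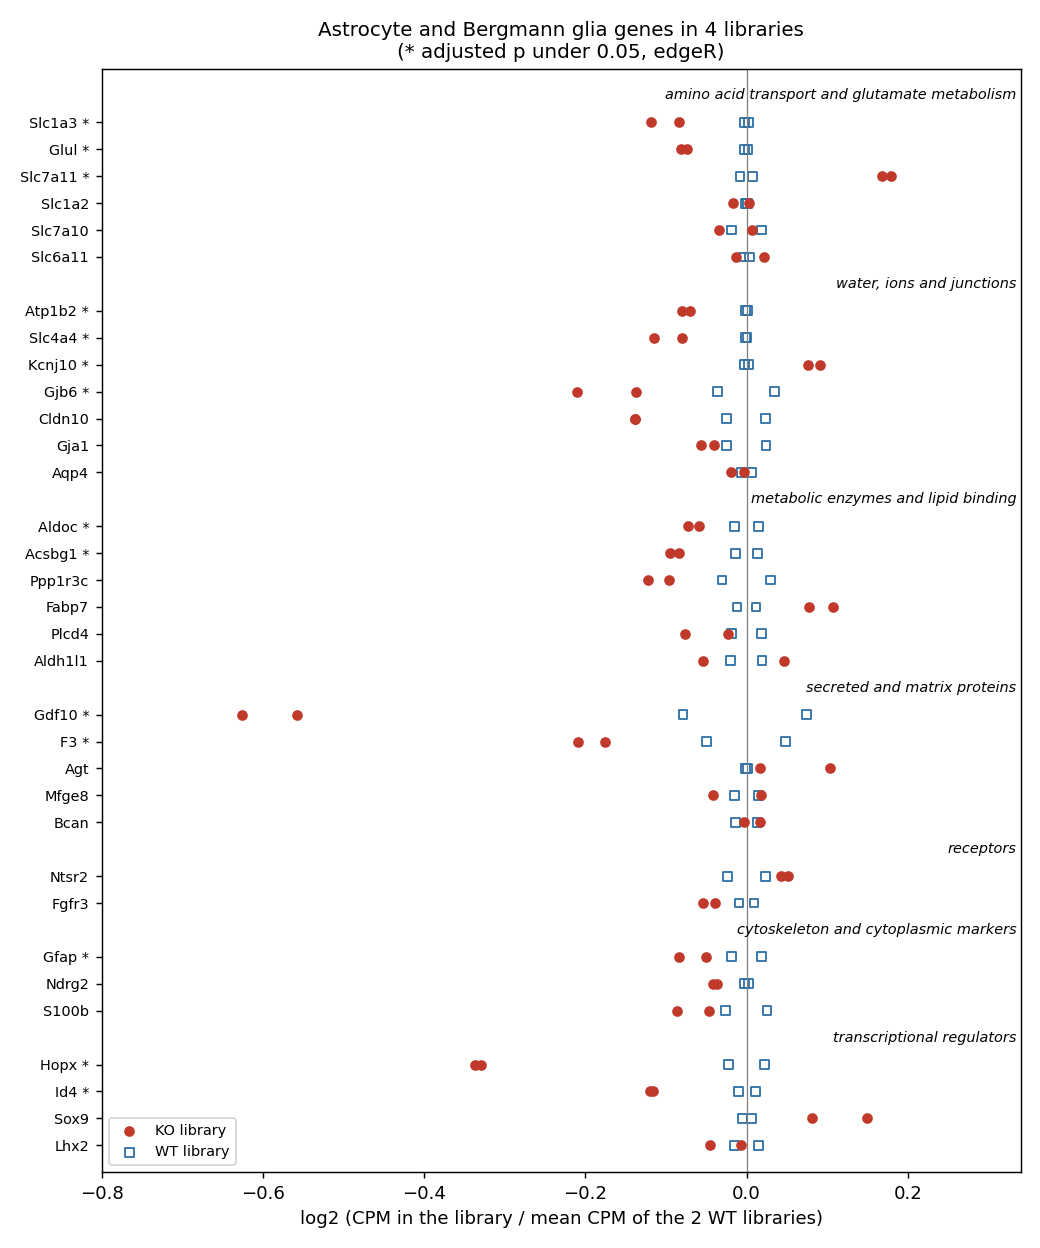
Each row is a gene, grouped by role. The x axis is the log2 ratio of CPM in a library to the mean of the WT libraries; filled red circles are KO libraries, open blue squares WT libraries, and asterisks mark an edgeR adjusted p under 0.05. Gdf10 and Hopx lie farthest to the left in KO, Slc7a11 farthest to the right.

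The largest falls were in the 2 genes that also mark Bergmann glia. Gdf10 (ENSMUSG00000021943), a secreted factor of the transforming growth factor beta family, had 13.0 and 13.7 CPM in KO libraries, against 19.0 and 21.2 CPM in WT libraries. Both KO libraries lay well below both WT libraries, and Gdf10 fell by 33.7% (log2 fold change -0.59, SE 0.065 and edgeR adjusted p = 8.72e-07). Hopx (ENSMUSG00000059325), a small homeodomain protein that does not bind DNA itself and also marks stem cells of the dentate gyrus, had 24.9 and 24.8 CPM in KO libraries, against 31.8 and 30.8 CPM in WT libraries. Its log2 fold change was -0.33 (SE 0.047 and edgeR adjusted p = 2.95e-05), with the groups apart. Hopx fell by 20.6%, and apart from Gdf10 the log2 fold changes of the remaining genes lay between -0.19, for F3, and 0.17, for Slc7a11. Gdf10 and Hopx stayed called under each alternative setting tried. Reads of Hopx could include some from the overlapping antisense gene Hopxos, which was itself counted at 3 to 21 reads per library.

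Of 9 genes in a list of other Bergmann glia genes, 4 fell, 1 rose and 4 were not called, with a median log2 fold change of -0.096, against -0.00038 over all genes tested. The lower calls were 44.4% and the higher calls 11.1% of this list, where 3.19% and 3.35% of all genes tested were lower and higher. The list was chosen with earlier results of these data known. Its summed level was 543 and 546 CPM in KO against 551 and 555 CPM in WT, with Zeb2 and Septin4 a large part. Those not called were Septin4 (log2 fold change 0.0175), Etv4 (0.11), Vim (-0.096) and Wif1 (-0.16). Dao, the D-amino acid oxidase of cerebellar astrocytes, had 1.81 and 1.64 CPM in KO against 3.57 and 3.67 CPM in WT, a log2 fold change of -1.07 (SE 0.145 and edgeR adjusted p = 1.80e-05). Timp4, an inhibitor of metalloproteinases, had 23.2 and 22.9 CPM in KO against 27.95 and 29.1 CPM in WT (log2 fold change -0.31). A2m, a plasma-type protease inhibitor, fell by 0.39 on the log2 scale. Zeb2, a transcription factor of many brain cell types, fell by 0.067, a call that was lost under 6 alternatives, and Etv5, a target of fibroblast growth factor signalling, rose by 0.12, a call lost without WT library 2 (log2 fold change 0.077, edgeR adjusted p = 0.172).

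Markers of cerebellar neurons and of dentate granule cells were also mostly lower in KO. In the list of cerebellar granule cell markers 9 of 10 fell and 1 was not called, and their summed level was 343 and 344 CPM in KO against 504 and 505 CPM in WT. Among Purkinje cell markers 9 of 10 fell, with sums of 916 and 918 CPM in KO against 1096 and 1091 CPM in WT. Itpr1 alone held 538.5 and 548 CPM of the KO sums and 613 and 616 CPM of the WT sums. In the dentate granule cell list 7 of 10 fell and 3 were not called, with sums of 477 and 476 CPM in KO against 524 and 526 CPM in WT. Those not called, Pdzd2, Stxbp6 and Dock10, held a large part of the dentate sums. The median log2 fold changes were -0.51 for cerebellar granule cells, -0.42 for Purkinje cells and -0.23 for dentate granule cells. Over all genes tested 3.19% were lower. No marker of these 3 lists was at 0 in any library, and the part of these cells' share in the fall of Gdf10, Hopx, Dao and Timp4 was not tested.

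The promoters of Gdf10 and Hopx, the genes that fell most, are shown beside those of the glutamate transporter genes Slc1a3, which fell, and Slc1a2, which was not called. Capitals mark TTGGC or its reverse complement GCCAA, the half-site of nuclear factor I proteins, whose genes are described further on. Each sequence is the 250 bases before an annotated start, on the gene's strand, from RefSeq on GRCm38.p6, a build other than that of the counts. In order, they lie at chr14:33923337-33923586 (+ strand), chr5:77115124-77115373 (- strand), chr5:77095268-77095517 (- strand), chr15:8710808-8711057 (- strand) and chr2:102706188-102706437 (+ strand).
Gdf10: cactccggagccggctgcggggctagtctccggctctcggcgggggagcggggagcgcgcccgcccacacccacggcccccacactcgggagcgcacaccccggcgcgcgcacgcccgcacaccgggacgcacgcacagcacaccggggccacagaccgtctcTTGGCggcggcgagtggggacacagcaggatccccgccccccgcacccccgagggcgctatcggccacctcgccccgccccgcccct
Hopx, start site 1: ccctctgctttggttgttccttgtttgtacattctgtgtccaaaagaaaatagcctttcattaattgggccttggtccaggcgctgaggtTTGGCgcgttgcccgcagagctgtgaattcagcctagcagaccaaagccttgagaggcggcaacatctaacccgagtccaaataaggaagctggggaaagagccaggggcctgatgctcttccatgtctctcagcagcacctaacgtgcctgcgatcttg
Hopx, start site 2: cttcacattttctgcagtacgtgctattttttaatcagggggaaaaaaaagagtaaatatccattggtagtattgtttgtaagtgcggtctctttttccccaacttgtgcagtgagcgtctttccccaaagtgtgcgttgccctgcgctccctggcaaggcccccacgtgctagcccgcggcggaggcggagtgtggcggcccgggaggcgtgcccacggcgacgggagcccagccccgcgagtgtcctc
Slc1a3: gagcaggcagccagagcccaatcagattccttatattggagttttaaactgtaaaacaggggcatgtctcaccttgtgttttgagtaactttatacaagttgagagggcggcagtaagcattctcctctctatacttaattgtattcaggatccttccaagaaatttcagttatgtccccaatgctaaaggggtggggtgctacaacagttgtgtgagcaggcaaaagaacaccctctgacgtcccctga
Slc1a2: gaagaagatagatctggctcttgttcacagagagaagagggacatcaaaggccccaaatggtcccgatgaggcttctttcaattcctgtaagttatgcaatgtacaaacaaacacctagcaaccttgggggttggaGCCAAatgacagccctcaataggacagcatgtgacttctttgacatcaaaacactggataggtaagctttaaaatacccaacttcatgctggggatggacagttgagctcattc

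Promoters on chromosome 18, where Aqp4 lies, were left out of the counts. Among the rest, the half-site occurred in 18 of 39 promoters of the 30 genes with an entry, 46.2%. In the same window it occurred in 41.5% of 32851 promoters of all genes outside chromosome 18. By gene, it occurred in 7 of 11 genes that fell, 2 of 2 that rose and 7 of 17 that were not called. These counts take a match at any start site, so genes with several start sites have more chances of one. The 41.5% is by promoter, and no share by gene over all genes was computed. Such a match of 5 letters on either strand is a description of the sequence.

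Among the regional genes, none of the 3 telencephalic genes was called, while 2 of the 3 hindbrain-rich genes fell. Over all genes tested 6.53% were called and 3.19% were lower, and among well-counted genes 13.5% and 5.97%. At these shares few calls are expected in any 3 genes, so the telencephalic count does not set these genes apart. By an unadjusted p under 0.05, by DESeq2 and by limma-trend the telencephalic count was also 0. The difference between the regional groups was not tested, since 3 genes are not replicates. Slc1a2 (ENSMUSG00000005089), the main glutamate transporter of forebrain astrocytes, had 3373 and 3327 CPM in KO libraries, against 3363 and 3369 CPM in WT libraries. Its log2 fold change was -0.0067 (SE 0.011 and edgeR adjusted p = 0.830), and 2 standard errors either way ran from -0.028 to 0.014. Mfge8 (ENSMUSG00000030605), which bridges dying cells and synapses to phagocytes, had 105 and 110 CPM in KO, against 109 and 107 CPM in WT, a log2 fold change of -0.012 with a range of -0.064 to 0.040. Lhx2 (ENSMUSG00000000247), a homeodomain factor of the developing cortex, had 62.2 and 63.8 CPM in KO, against 63.5 and 64.8 CPM in WT, with -0.027 and a range of -0.089 to 0.036. In all 3 telencephalic genes the KO and WT libraries overlapped, where 45.7% of all genes tested and 55.9% of well-counted genes did not.

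Of the hindbrain-rich genes Slc1a3 and Gdf10 fell, and Agt was not called. Slc1a3 (ENSMUSG00000005360), the glutamate and aspartate transporter, had 565 and 579 CPM in KO libraries, against 612 and 614 CPM in WT libraries. The groups were apart, and Slc1a3 fell by 6.78% (log2 fold change -0.10, SE 0.015 and edgeR adjusted p = 5.02e-05). Agt (ENSMUSG00000031980), which encodes the precursor of angiotensin, had 58.6 and 55.2 CPM in KO, against 54.5 and 54.6 CPM in WT. Both KO libraries were above both WT libraries, with KO library 1 the highest, but the difference was not called (log2 fold change 0.062, SE 0.035 and edgeR adjusted p = 0.382).

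**Figure D2:**
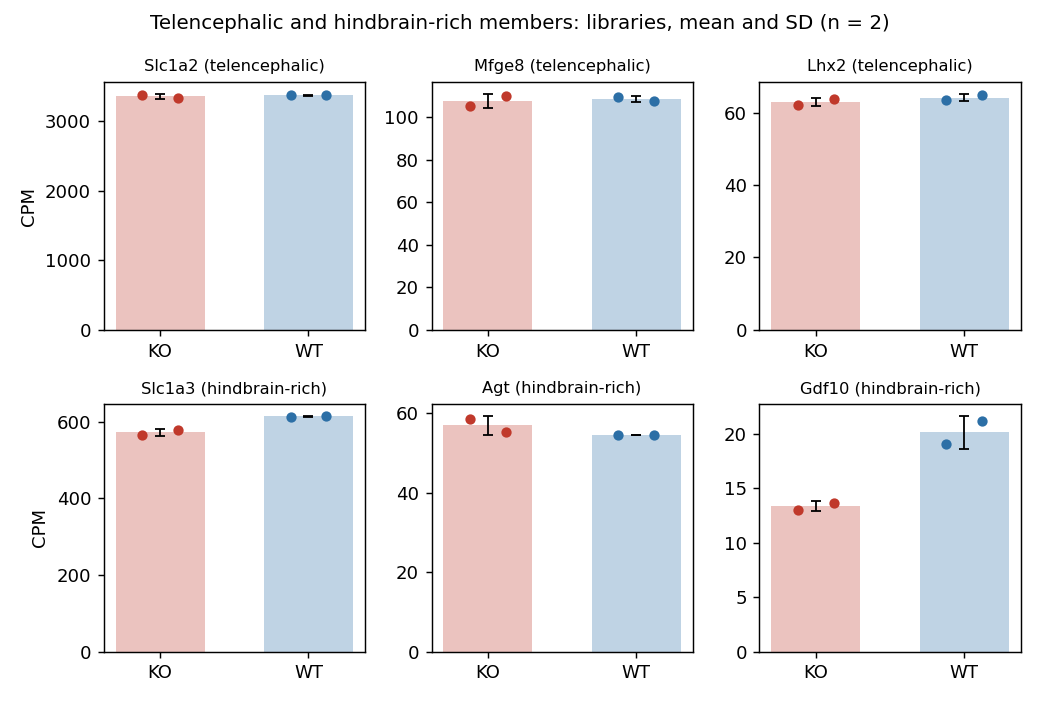
CPM of the 3 telencephalic genes (upper row) and the 3 hindbrain-rich genes (lower row), KO left and WT right; bars are means, error bars SD over 2 libraries, and points the libraries. The KO points of Gdf10 and Slc1a3 lie below the WT points, those of Agt lie above, and those of the telencephalic genes overlap.

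Ratios taken within each library do not depend on scaling. The log2 ratio of Slc1a3 to Slc1a2 reads was -2.58 and -2.52 in KO libraries, against -2.46 and -2.46 in WT libraries, a difference of -0.094. For Gdf10 over Lhx2 it was -2.25 and -2.22 in KO and -1.74 and -1.61 in WT, a difference of -0.56. For Agt over Mfge8 it was -0.85 and -0.99 in KO and -1.01 and -0.98 in WT, so the groups overlapped. The ratios of Slc1a3 and Gdf10 were lower in both KO libraries than in both WT libraries, and that of Agt was not.

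Other regional astrocyte genes, from lists of 8 each, went both ways. Of the telencephalic list 1 rose and 1 fell, 12.5% each, where 3.35% of all genes tested were higher and 3.19% lower. Rorb, an orphan nuclear receptor, rose by 0.13 on the log2 scale (52.9 and 54.9 CPM in KO, 47.5 and 50.8 CPM in WT) and Crym, a thyroid hormone binding protein, fell by 0.175. Neurons also transcribe both. Of the non-telencephalic list 2 rose and 6 were not called: the hyaluronan-binding protein gene Itih3 rose by 0.13 and Myoc, which encodes secreted myocilin, by 0.19. Leaving out 1 library ended each of these 4 calls at least once: Rorb had 0.087 without WT library 1 (edgeR adjusted p = 0.395) and 0.11 when KO library 2 was dropped (edgeR adjusted p = 0.151), and Crym had -0.14 without WT library 2 (edgeR adjusted p = 0.0721). Itih3 lost its call without any 1 library (edgeR adjusted p = 0.0909 to 0.270), and Myoc had 0.15 without WT library 1 (edgeR adjusted p = 0.286) and, when KO library 1 was dropped, 0.16 (edgeR adjusted p = 0.189).

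In amino acid transport and glutamate metabolism, 2 of 6 genes fell and 1 rose. Beside this and the role groups below, 3.19% of all genes tested were lower and 3.35% higher. Among well-counted genes the shares were 5.97% and 7.56%. Groups this small do not tell one function from another. Glul, glutamine synthetase, had 1438 and 1431 CPM in KO libraries, against 1516 and 1511 CPM in WT libraries. The groups were apart by more than their spread, with a log2 fold change of -0.078 (SE 0.012 and edgeR adjusted p = 7.31e-05), although with counts halved to stand for read pairs the adjusted p was 0.0592. Glul shares 1126 bases at 96.8% identity with the pseudogene Glns-ps1, which had 171 to 206 reads. Slc7a11, the transporter that exchanges cystine for glutamate, had 52.7 and 52.3 CPM in KO, against 46.8 and 46.3 CPM in WT, a log2 fold change of 0.17 (SE 0.035 and edgeR adjusted p = 0.00169). It was the largest rise among the 33 genes. An annotated Slc7a11 transcript shares 373 bases, at 95.2% to 96.5% identity, with alpha tubulin genes and their pseudogenes, so its value is uncertain.

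The other 3 transporters were not called, and their KO and WT libraries overlapped. Slc6a11, a GABA transporter, had a log2 fold change of 0.0043, Slc7a10, which carries small neutral amino acids such as D-serine, one of -0.014, and Slc1a2 the value given above. An exon of Slc7a10 overlaps Lrp3 on the other strand by 237 bases, and since it is not known whether strand was used in counting, reads there cannot be assigned.

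Of 7 genes for water, ions and junctions, 3 fell and 1 rose, where 5.97% of well-counted genes were lower and 7.56% higher. Atp1b2, a beta subunit of the sodium pump, had 663 and 658 CPM in KO libraries, against 697 and 695 CPM in WT libraries (log2 fold change -0.075, SE 0.014 and edgeR adjusted p = 0.000659). Slc4a4, the sodium bicarbonate cotransporter, had 235 and 241 CPM in KO, against 254 and 254 CPM in WT (log2 fold change -0.097, SE 0.018 and edgeR adjusted p = 0.000893). Kcnj10, the inward rectifier channel that takes up potassium and that oligodendrocytes also transcribe, went the other way, with 323 and 327 CPM in KO, against 307 and 306 CPM in WT (log2 fold change 0.083, SE 0.016 and edgeR adjusted p = 0.00142). KO and WT libraries were apart in all 3.

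The 2 connexin genes of astrocyte gap junctions were both below WT. Gjb6 had 47.6 and 50.1 CPM in KO libraries, against 56.4 and 53.7 CPM in WT libraries, a log2 fold change of -0.17 (SE 0.037 and edgeR adjusted p = 0.00325). Without WT library 1, the higher of the WT pair, it was -0.14 (edgeR adjusted p = 0.0675). Gja1 had 211 and 213 CPM in KO, against 223 and 216 CPM in WT, and was not called (log2 fold change -0.049, edgeR adjusted p = 0.179). The log2 ratio of Gjb6 to Gja1 reads was -2.15 and -2.09 in KO and -1.98 and -2.01 in WT. Cldn10, a claudin, had -0.14 (edgeR adjusted p = 0.172) and Aqp4, the water channel of astrocyte endfeet, -0.011 (edgeR adjusted p = 0.860).

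Of 6 metabolic and lipid-binding genes, 2 fell and 4 were not called, where 5.97% of well-counted genes were lower. Aldoc, the brain aldolase, which a subset of Purkinje cells also makes, had 817 and 825 CPM in KO libraries, against 851 and 868 CPM in WT libraries (log2 fold change -0.066, SE 0.014 and edgeR adjusted p = 0.00275). With counts halved the adjusted p was 0.0924. Acsbg1, which activates long-chain fatty acids, had 137 and 136 CPM in KO, against 144 and 146 CPM in WT (log2 fold change -0.090, SE 0.022 and edgeR adjusted p = 0.0109). Without WT library 2 its log2 fold change was -0.075 (edgeR adjusted p = 0.140). The 4 others were Ppp1r3c, which brings a phosphatase to glycogen, with -0.11, Fabp7, the brain fatty acid-binding protein, with 0.093, the phospholipase Plcd4 with -0.050, and the folate enzyme Aldh1l1 with -0.0043. Plcd4 overlaps Zfp142 on the other strand over 1601 bases, so its level is uncertain.

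Among secreted and matrix proteins F3 fell beside Gdf10. F3, tissue factor, which starts blood coagulation, had 39.6 and 38.7 CPM in KO libraries, against 46.2 and 43.2 CPM in WT libraries (log2 fold change -0.19, SE 0.041 and edgeR adjusted p = 0.00317). Without WT library 1 its log2 fold change was -0.14 (edgeR adjusted p = 0.109). Bcan, the matrix proteoglycan brevican, which oligodendrocyte precursors also make, overlapped between KO and WT (log2 fold change 0.0071). Fgfr3, a fibroblast growth factor receptor, and Ntsr2, a neurotensin receptor, were not called, with log2 fold changes of -0.046 and 0.047.

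Of the cytoplasmic markers only Gfap passed the test, and narrowly. Gfap, the intermediate filament of astrocytes, had 208 and 213 CPM in KO libraries, against 223 and 218 CPM in WT libraries (log2 fold change -0.067, SE 0.020 and edgeR adjusted p = 0.0396). The call rested on single libraries: without WT library 1 the log2 fold change was -0.048 (edgeR adjusted p = 0.382), and without KO library 1 it was -0.050 (edgeR adjusted p = 0.241). The calcium-binding protein gene S100b had the same log2 fold change of -0.067 with a wider error and was not called (SE 0.026 and edgeR adjusted p = 0.156). Ndrg2 had -0.039 (edgeR adjusted p = 0.106), and was called by DESeq2 (adjusted p = 0.0397).

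Of 4 transcriptional regulators, Hopx and Id4 fell, where 5.97% of well-counted genes were lower. Id4, which blocks basic helix-loop-helix factors, had 97.9 and 98.1 CPM in KO libraries, against 107 and 106 CPM in WT libraries (log2 fold change -0.12, SE 0.025 and edgeR adjusted p = 0.00310). Sox9, a factor that sets glial fate, had 42.0 and 40.1 CPM in KO, against 38.0 and 37.7 CPM in WT. The KO libraries were above the WT libraries, but the difference was not called (log2 fold change 0.12, SE 0.040 and edgeR adjusted p = 0.0914).

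Per kilobase of annotated exon, the mean level in WT libraries ranged from 3.04 CPM per kb for Plcd4 to 456 for Glul. Gdf10 stood near the bottom of that range, at 2.56 CPM per kb in KO and 3.86 in WT, and Hopx at 16.4 in KO and 20.7 in WT. Slc1a2 stood at 255 in KO and 256 in WT, and Slc1a3 at 67.0 in KO and 71.8 in WT. Falls of under 10% could be called in abundant genes such as Glul and Aldoc because their standard errors were 0.012 and 0.014 on the log2 scale, while Cldn10, at 8.03 CPM per kb in WT, was not called with a larger difference and an SE of 0.056.

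**Figure D3:**
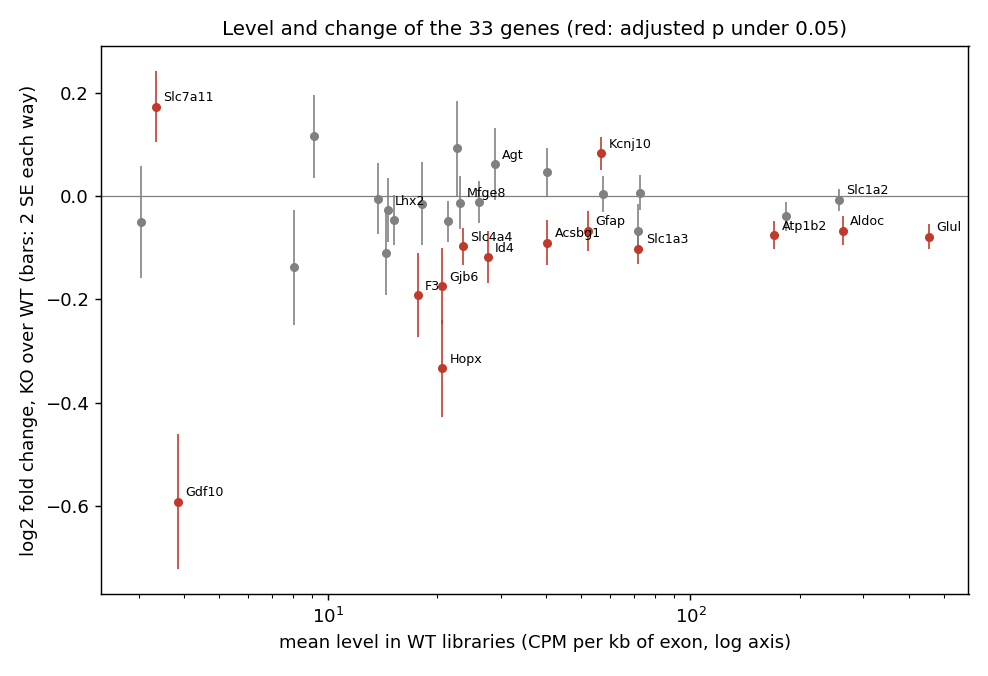
Each point is a gene: the x axis is its mean level in WT libraries in CPM per kb of exon (log axis), the y axis its log2 fold change KO over WT, with bars of 2 standard errors each way; red marks an edgeR adjusted p under 0.05. Gdf10, at 3.86 CPM per kb in WT, lies lowest at -0.59, and Slc1a2, at 256, lies near 0.

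A wider list of 40 astrocyte genes leaned the same way. In that list 11 genes fell and 2 rose, 27.5% and 5%, with a median log2 fold change of -0.064. Over all genes tested 3.19% were lower and 3.35% higher, and over well-counted genes 5.97% and 7.56%. Htra1, a secreted protease, had 163 and 156 CPM in KO against 182 and 176 CPM in WT (log2 fold change -0.17, SE 0.023 and edgeR adjusted p = 1.78e-05). Pla2g7, a lipoprotein-associated phospholipase, fell by 0.16, Grin2c, an NMDA receptor subunit gene that cerebellar granule cells also use, by 0.16, and Daam2, a Wnt pathway protein, by 0.14. Cspg5, a proteoglycan, rose by 0.14 (276 and 274 CPM in KO, 248 and 249 CPM in WT), and Sox2, a stem cell and glial factor named after its values were seen, by 0.19. Sox2 was not called without WT library 2 (log2 fold change 0.15, edgeR adjusted p = 0.0802).

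Factors of astrocyte formation, also listed with earlier results of these data known, fell in part. Of 19 genes in the list, 6 fell and 13 were not called, with a median log2 fold change of -0.030. The lower calls were 31.6% of the list, against 3.19% of all genes tested and 5.97% of well-counted genes. Zbtb20, a repressor also high in hippocampal neurons, had 204 and 207 CPM in KO against 238 and 246 CPM in WT (log2 fold change -0.24, SE 0.020 and edgeR adjusted p = 9.63e-09). The nuclear factor I genes Nfia and Nfib, which switch progenitors to glia and are also transcribed by cerebellar and dentate granule cells, fell by 0.18 and 0.16. Nfix, of the same family and named after its values were seen, fell by 0.071. Notch2, a receptor of the Notch pathway, fell by 0.22 and Lifr, the receptor for leukemia inhibitory factor, by 0.16. The part of granule cells in these falls was not tested, and their marker sums are those given above.

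Genes that astrocytes raise on injury, also listed with earlier results of these data known, were lower where they were called. Of 24 such genes 23 were tested, 4 fell and 19 were not called, with a median log2 fold change of -0.096. The lower calls were 17.4% of those tested, against 3.19% of all genes tested. Lcn2, an iron-carrying protein of reactive astrocytes and of neutrophils, had 3.36 and 3.56 CPM in KO against 7.59 and 6.80 CPM in WT (log2 fold change -1.06, SE 0.107 and edgeR adjusted p = 2.02e-07). Serpina3n, a protease inhibitor, had 15.6 and 15.7 CPM in KO against 18.9 and 20.3 CPM in WT (log2 fold change -0.32). Osmr, the oncostatin M receptor, fell by 0.35 and H2-D1, an antigen-presenting class I gene, by 0.19. Osmr was not called without WT library 1 (log2 fold change -0.24, edgeR adjusted p = 0.285) or KO library 1 (edgeR adjusted p = 0.0651), nor H2-D1 without WT library 1 (edgeR adjusted p = 0.0628). H2-D1 belongs to a family of near-identical genes, so its value is uncertain.

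Markers of the other cells in the libraries are given for their sums. Their calls stand beside 3.19% lower and 3.35% higher among all genes tested, and 5.97% and 7.56% among well-counted genes. Choroid plexus markers fell in 7 of 10 genes, with sums of 459 and 451 CPM in KO against 657 and 654 CPM in WT. Ttr alone held 388 and 383 CPM of the KO sums and 560.5 and 559.9 CPM of the WT sums. Ependymal markers had 0 calls among 9 tested by edgeR, DESeq2 or limma-trend, 2 with an unadjusted p under 0.05, and a median log2 fold change of -0.24; the sums were 35.95 and 34.3 CPM in KO against 38.75 and 38.05 CPM in WT. Oligodendrocyte markers rose in 9 of 10 genes, with sums of 10890 and 10910 CPM in KO against 10250 and 10330 CPM in WT. Microglial markers had 0 of 10 called by any of the 3 tools, 1 with an unadjusted p under 0.05, and their sums were 353 and 348 CPM in KO against 346 and 347 CPM in WT. Oligodendrocyte precursor markers rose in 2 of 10 genes, with 8 not called and sums of 622 and 610 CPM in KO against 590 and 598 CPM in WT. Neuron markers rose in 4 of 12 genes, with 8 not called and sums of 9123 and 9141 CPM in KO against 8886 and 8901 CPM in WT. Endothelial markers rose in 1 and fell in 1 of 10 genes, with sums of 382 and 375 CPM in KO against 412 and 406.5 CPM in WT. Most of that gap came from Slc2a1, with 108 and 103 CPM in KO against 134 and 134 CPM in WT. Pituitary markers fell in 3 of the 4 genes tested out of 8 listed, with sums of 29.5 and 29.25 CPM in KO against 61.8 and 61.9 CPM in WT. The summed level of the 33 astrocyte genes was 10400 CPM in both KO libraries, against 10690 and 10680 CPM in WT libraries. The part of these other cells in the astrocyte results was not tested.

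**Figure D4:**
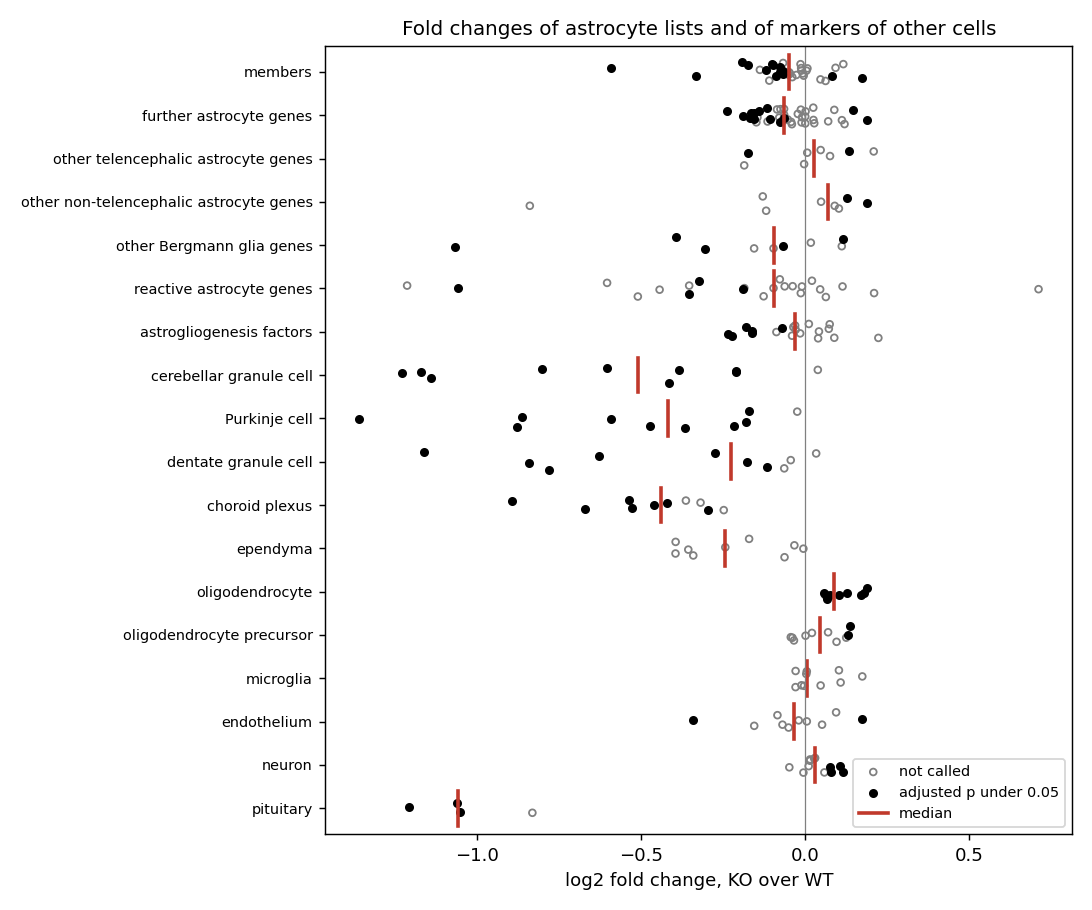
Log2 fold change KO over WT (x axis) of each tested gene in the 33 astrocyte genes and in 17 other lists (rows); filled points have an edgeR adjusted p under 0.05, open points do not, and red bars are medians. The astrocyte genes sit near 0 with a tail to the left, the cerebellar, choroid plexus and pituitary markers lie left, and the oligodendrocyte markers right.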

How the data were processed

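The authors deposited raw counts of reads per gene for 4 libraries. The submitters' processing notes list GRCm39 as build and name the tools STAR 2.6.1c, FastQC, DESeq2 and featureCounts. The sources used here do not state the role of each tool, the strand setting or the annotation release. Of counts between 1 and 20, 72.8% to 74.3% were even, so both mates of a pair appear to have been counted and counting error exceeds that of single reads.

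Gene symbols matched 52081 of 55414 identifiers. Counts were filtered with filterByExpr (minimum 10), scaled with TMM and tested with glmQLFit and glmQLFTest in edgeR 4.0.16 (R 4.3.3) over 21592 genes, without other terms. The standard error is the log2 fold change over the square root of F. Exon lengths and overlaps came from GENCODE M21 on GRCm38, an annotation other than that of the counts. The procedure was also run on simulated data with planted changes, whose outcome is not used as support for the small differences reported. Alternatives used DESeq2 1.42.0 and limma 3.58.1 among others.

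The members and lists were chosen with earlier results of these data known. Every called member and the regional members are given by library, and up to 5 called genes with the smallest p from each other list. Some genes that this rule names are not reported here.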

Additional observations from a re-analysis of the deposited data

How the results depend on the processing

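Under 11 alternatives other than leaving out a library, between 2 and 3 of the 33 genes were higher and 11 to 13 lower, and 1371 to 1955 genes were called in all. With the library size alone, in place of TMM, the median of all genes moved to -0.0099, and the log2 fold changes of Slc6a11 and Bcan, never called, became -0.0053 and -0.0025. With counts halved, 12 of the 14 called genes stayed called, without Glul and Aldoc. Ndrg2 was called in addition with library size alone, DESeq2 and counts halved, and Sox9 with the stricter filter, at an adjusted p under 0.1 and without KO library 2. Without 1 library, which leaves a lone library assumed to vary like the other genotype's, 2 to 3 genes were higher and 9 to 12 lower, and 1064 to 1273 genes were called. Then 6 genes near 0 changed sign in at least 1 case, and none of the 6 was called. Their log2 fold changes ran from -0.017 to 0.0042 for Slc1a2, -0.040 to 0.018 for Mfge8, -0.033 to 0.0074 for Slc7a10, -0.053 to 0.046 for Aldh1l1, -0.0061 to 0.021 for Bcan and -0.012 to 0.022 for Slc6a11. The cause was not tested. Libraries with the same replicate number did not deviate together (correlation 0.029 over 11909 genes), and the fit with a replicate block called 1590 genes and the same 14 members. Among the other genes named, Itih3 lost its call with library size alone and DESeq2, and Zeb2 with limma-trend, dispersion 0 and counts halved. The depth limits members under about 20 CPM, whose standard errors reach 0.065 on the log2 scale.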

Other observations

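Partners of astrocytes in clearing glutamate and potassium were mixed. Of 24 genes in that list 2 rose and 4 fell, with a median log2 fold change of -0.011. The higher calls were 8.33% and the lower calls 16.7%, against 3.35% and 3.19% of all genes tested and 7.56% and 5.97% of well-counted genes. Kcnk2, a background potassium channel, rose by 0.16. Slc1a6, the glutamate transporter of Purkinje cells, had 9.52 and 8.89 CPM in KO against 12.8 and 12.75 CPM in WT (log2 fold change -0.47, SE 0.074). Slc7a5, a large neutral amino acid transporter, fell by 0.14.

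Of 17 genes of glycogen and glucose handling 4 fell and 1 rose, with a median log2 fold change of -0.031. The lower calls were 23.5% and the higher calls 5.88% of this list, against 3.19% and 3.35% of all genes tested. Among well-counted genes 5.97% were lower and 7.56% higher. Slc2a1, the glucose transporter of brain endothelium and glia, had 108 and 103 CPM in KO against 134 and 134 CPM in WT (log2 fold change -0.34, SE 0.025 and edgeR adjusted p = 7.45e-10). In the endothelial list, of which it is also a member, 1 of 10 genes rose and 1 fell. Pygb, the brain glycogen phosphorylase, fell by 0.15, Gpd1, which links glycolysis to glycerol phosphate, by 0.14, and Pdk4, which restrains pyruvate dehydrogenase, by 0.36. Ldha, a lactate dehydrogenase subunit, rose by 0.090. Pdk4 was not called without WT library 1 (edgeR adjusted p = 0.0700) or KO library 2 (edgeR adjusted p = 0.0655), nor Ldha without WT library 1 (edgeR adjusted p = 0.0549).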
